A study of Mus musculus with 36 samples.

Results

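A set of 10 genes encoding AP-1, ATF3, BATF and MAFF transcription factors were followed across 36 RNA-seq libraries of mouse bone marrow-derived macrophages (BMDMs). The members were *Jun*, *Junb*, *Jund*, *Fosl1*, *Fosl2*, *Atf3*, *Batf*, *Batf2*, *Batf3* and *Maff*, and they were taken by symbol from a table of 54532 genes, in which 48 rows carry the bZIP family label. Each of the 10 symbols matched 1 row, and 10 of 10 passed the filter on low counts in each comparison. BMDMs were grown for 7 d with MCSF from the marrow of female C57BL/6 mice aged 13 to 17 weeks. Both genotypes carried loxP-flanked *Bmal1* alleles (Bmal1 flox/flox). The WT groups (n = 3 per treatment) were Bmal1 flox/flox without Cre, and the KO groups (n = 6 per treatment) were LysM-Cre;Bmal1 flox/flox, in which the myeloid LysM promoter drives Cre. Cells of each genotype were treated for 6 h with vehicle (DMSO), with 100 µM CCM (Core Circadian Modulator, a small molecule that binds the PASB domain of BMAL1), with 100 nM LPS (lipopolysaccharide, the bacterial ligand of Toll-like receptor 4; with DMSO), or with LPS and CCM together.

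All 10 proteins share the bZIP fold, a basic DNA-contacting segment followed by a leucine zipper through which they pair. Jun proteins pair with themselves, with Fos-family partners such as FOSL1 and FOSL2, with ATF3 or with BATF proteins, and the pair that forms sets which DNA element is read. In macrophages, Toll-like receptor signals reach these genes through MAP kinases and NF-kB, and BATF proteins that pair with Jun proteins also recruit IRF factors. MAFF is a small MAF protein with no activation domain of its own.

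Totals per library ranged from 13469262 to 28288923 read pairs on genes (median 19951421), and libraries of a group differed by more than counting noise in each pair. Levels below are CPM, counts scaled to library size with TMM factors over the 36 libraries. The deleted gene, *Arntl* (the symbol for *Bmal1*), was counted over the whole gene, which includes exons outside the deleted part. Its level averaged 9.91 CPM (range 7.28 to 12.9, 12 libraries) in WT and 6.84 CPM (2.13 to 10.7, 24 libraries) in KO, 12 of 24 KO libraries reached the lowest WT level, and it did not differ at the edgeR threshold between genotypes under vehicle (log2 fold change -0.34, SE 0.26, adjusted p = 1.0). The libraries of KO replicate 6 stood apart from the other KO libraries. Summed CPM of 5 neutrophil markers was 869 to 923 in the 4 libraries of that replicate and 250 to 707 in the other 32, and the 6 macrophage markers, each detected, summed to 3037 to 4544 against 3932 to 6111. T-cell markers (3 genes) summed to 1.10 to 3.27 CPM against 0.0559 to 0.757. The dendritic cell (2.54 to 6.84 against 1.90 to 5.83 CPM), B cell (1.28 to 2.49 against 0.484 to 2.01), erythroid (4.43 to 10.9 against 0.890 to 6.53) and fibroblast sums (277 to 531 against 270 to 1440) overlapped. The main KO comparisons are also given without this replicate, and other KO values include it. In bulk RNA, fewer cells of a type and less RNA per cell cannot be told apart.

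The genes lie on 7 chromosomes of mm10. *Batf3* (chr1:191097847-191108945, plus strand) and *Atf3* (chr1:191170296-191218039, minus strand) are neighbors, 61351 bases apart. *Junb* (chr8:84974484-84978718, minus strand) shares exonic sequence with *Prdx2* on the other strand, *Jun* (chr4:95049034-95052222, minus strand) with *Junos*, *Jund* (chr8:70698949-70700616, plus strand) with *Gm11175*, *Fosl1* (chr19:5447703-5455945, plus strand) with *Ccdc85b*, and *Batf2* (chr19:6140983-6172476, plus strand) with *Arl2*. Whether reads were counted by strand is not given in the sources used here. In the shared stretches, reads of these 5 genes could therefore not be told from those of their partners. *Gm11175* was at 0 in all of the compared groups, and the values of the other partners are given beside the results they touch. *Fosl2* (chr5:32135801-32157842), *Batf* (chr12:85686669-85709087) and *Maff* (chr15:79346621-79359076), all on the plus strand, and *Batf3* overlapped no other annotated gene, and *Atf3* only a small gene within an intron.

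Promoter windows of 250 bases before a RefSeq start site (GRCm38.p6) were found for 8 of the 10 genes, with 3 windows for *Maff*. For *Jund* the window lies upstream of the counted gene, for *Batf* it runs into it, and for *Fosl2*, *Atf3*, *Batf3* and the second and the third *Maff* start site it lies within it. The search covered 8 motifs on both strands. The CRE (TGACGTCA), the full-length element read by ATF and CREB factors, was found in 1.55% of 32851 windows, and the related 8-base element TGACATCA in 2.93%. The windows of *Jun* and *Maff* are printed because they hold such an element outside any annotated exon, *Jun* with TGACATCA at -45 to -38 and *Maff* (second start site) with TGACGTCA at -29 to -22 relative to the start. Capitals mark these elements and, in *Maff*, an E-box (CACGTG, the element read by CLOCK and BMAL1; 6.02% of windows) at -191 to -186. The *Jun* window is chr4:95052223-95052472 on the minus strand and the *Maff* window chr15:79347270-79347519 on the plus strand, both written 5′ to 3′.
Jun: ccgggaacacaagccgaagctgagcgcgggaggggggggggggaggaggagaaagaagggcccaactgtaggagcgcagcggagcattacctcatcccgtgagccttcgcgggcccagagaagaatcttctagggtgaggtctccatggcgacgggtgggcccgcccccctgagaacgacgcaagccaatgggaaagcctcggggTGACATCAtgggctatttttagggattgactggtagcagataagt
Maff: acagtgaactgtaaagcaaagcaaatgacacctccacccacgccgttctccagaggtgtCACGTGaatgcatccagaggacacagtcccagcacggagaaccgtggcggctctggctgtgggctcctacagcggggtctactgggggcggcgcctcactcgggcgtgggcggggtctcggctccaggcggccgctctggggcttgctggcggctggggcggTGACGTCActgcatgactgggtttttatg
The shorter AP-1 element TGACTCA (4.46% of windows) was found in none of the members' windows. The third *Maff* window also held TGACATCA, at -45 to -38, and a kB motif, and the *Fosl2* window held a kB motif (3.16% of windows) and an ISRE (2.98%). The *Batf3* window held an E-box at -247 to -242 and a GAS motif (7.02%). The windows of *Junb*, *Jund*, *Atf3* and *Batf* held none of the 8 motifs, which says only that these letters are not in the 250 bases searched.

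In WT macrophages at rest the 10 transcripts fell into an abundant and a scarce set. Levels were compared between genes as CPM per kilobase of counted gene length. *Atf3* was highest at 174 ± 18.1 (SD, n = 3), followed by *Junb* at 80.5 ± 4.06, *Jun* at 57.7 ± 6.21 and *Jund* at 35.1 ± 3.78, and each neighboring pair in this order was separated in every library. *Fosl2* stood at 6.64 ± 0.874 CPM per kb. *Maff* (3.33 ± 0.962), *Batf3* (3.22 ± 0.583), *Fosl1* (3.15 ± 0.724) and *Batf* (2.82 ± 0.0960) overlapped as neighbors, and *Batf2* was lowest at 1.04 ± 0.143. In KO macrophages under vehicle *Atf3* was again highest (174 ± 25.0, n = 6) and *Batf2* lowest (1.18 ± 0.344). *Junb*, *Jun* and *Jund* overlapped there, as did the run from *Fosl2* to *Batf*.

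**Figure D1:**
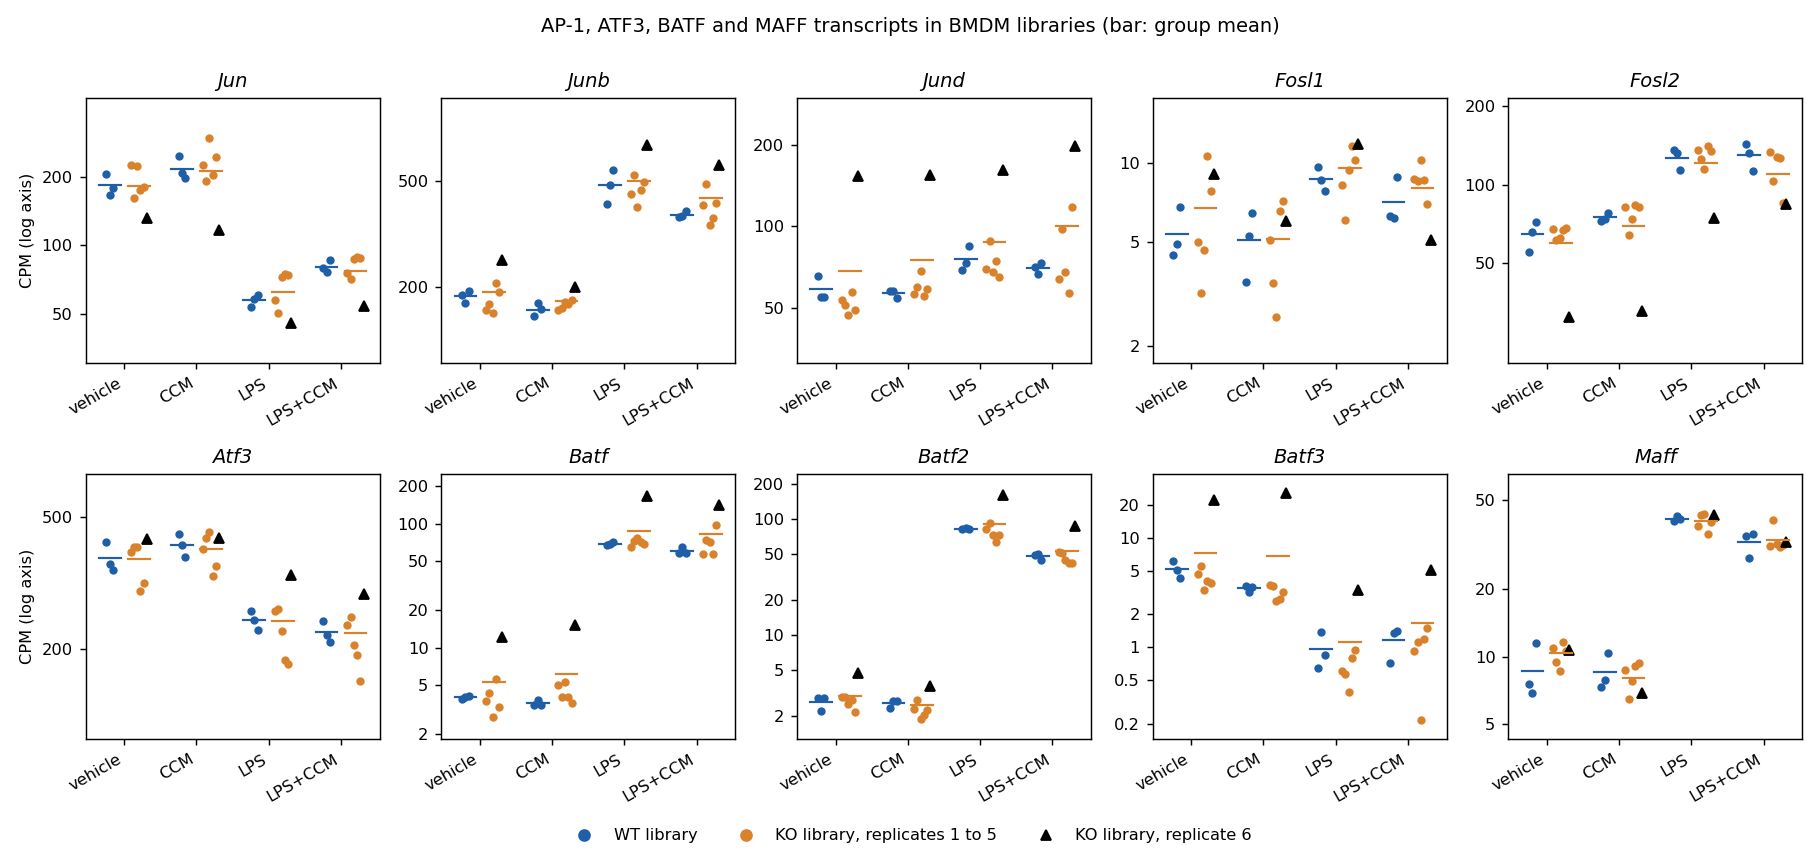
Level of each of the 10 genes in each library, in CPM on a log axis that differs between panels. Blue points are WT libraries (n = 3 per treatment), orange points KO replicates 1 to 5, black triangles KO replicate 6, and bars group means. *Batf* and *Batf2* were below 20 CPM in each library without LPS and above 40 CPM in each library with LPS, and the triangle lies above the other KO points for *Jund* and *Batf3* in 4 of 4 treatments.

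The first comparison asked how 6 h of LPS alters these genes in WT BMDMs. By edgeR's quasi-likelihood test (adjusted p at or below 0.05), 10 of 10 genes differed from vehicle, 7 higher and 3 lower. LPS moved much of the transcriptome, with 63% of 14501 genes called, 30.6% higher and 32.4% lower, so that being called does not by itself set these genes apart. Their median absolute log2 fold change was 1.53, and that of all genes tested 0.54. The genes were chosen with earlier results of these data known, so this difference does not set them apart either. Vehicle and LPS libraries did not overlap for 10 of 10 genes (68.9% of all genes). Scaling by total counts instead of TMM moved the median of all genes from -0.05 to -0.47 on the log2 scale and the calls to 2551 higher and 8060 lower. The results below are relative to the TMM scale. They hold for 6 h, the only time sampled, so a rise or fall of a gene at earlier times could not be seen.

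The largest increases were in the BATF genes that act with Jun proteins and IRF factors. *Batf2* measured 2.83, 2.21 and 2.84 CPM in the WT vehicle libraries and 81.2, 83.2 and 82.1 CPM in the WT LPS libraries. The groups were far apart, and the fold change was 31.0 (log2 4.96, SE 0.094, adjusted p = 5.88e-11). *Arl2*, which overlaps *Batf2*, was lower with LPS (24.6 ± 1.58 to 20.0 ± 0.926 CPM, log2 -0.29). *Batf* rose from 3.82, 3.97 and 4.09 CPM to 66.7, 68.5 and 70.9 CPM, 17.4-fold (log2 4.12, SE 0.076, adjusted p = 5.24e-11). *Batf3*, a factor known for its part in the development of conventional dendritic cells, moved the other way, from 6.10, 5.08 and 4.24 CPM to 0.650, 1.38 and 0.843 CPM (log2 -2.39, SE 0.28, adjusted p = 4.12e-05). The WT LPS values of *Batf3* rest on 11 to 32 read pairs per library, against 115 to 166 under vehicle. Among the other cell types checked, 5 dendritic cell markers summed to 3.01 to 5.44 CPM in the WT vehicle and 4.72 to 5.22 CPM in the WT LPS libraries. The neutrophil sum was lower with LPS (392 to 425 against 350.3 to 385 CPM) and the macrophage sum higher (4102 to 4403 against 5340 to 5490 CPM), both without overlap, and their part in the LPS results was not tested.

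Within the Jun family, the 3 genes were altered in different directions. *Jun*, the founding AP-1 subunit and an immediate early gene, fell from 206, 167 and 179 CPM to 53.8, 58.3 and 60.5 CPM, to 0.314 of the vehicle level (log2 -1.67, SE 0.084, adjusted p = 6.43e-08). Its antisense partner *Junos* was lower too, at a far lower level (1.46 ± 0.383 to 0.671 ± 0.253 CPM). *Junb*, often a weaker activator than JUN and a partner of BATF, rose from 188, 175 and 193 CPM to 412, 485 and 553 CPM (2.62-fold, log2 1.39, SE 0.10, adjusted p = 9.99e-07). *Prdx2* on the other strand rose less, from 146 ± 9.77 to 188 ± 13.1 CPM. *Jund*, usually the most steadily expressed Jun gene, measured 65.8, 55.1 and 54.7 CPM under vehicle and 68.9, 73.1 and 84.3 CPM with LPS, close but not overlapping. It was called higher (log2 0.37, SE 0.095, adjusted p = 0.00628), and under total-count scaling its sign turned (log2 -0.04) and the call was lost. The call was also lost with upper-quartile scaling (log2 0.19, adjusted p = 0.108) and in 1 fit of all 36 libraries.

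Counted per kilobase, the share of *Jun* in the summed Jun-family level went from 33.3 ± 1.32% (n = 3) in WT vehicle to 6.64 ± 0.502% in WT LPS. The share of *Junb* went from 46.5 ± 2.32% to 76.8 ± 1.13%, and that of *Jund* from 20.2 ± 1.15% to 16.6 ± 0.715%. The 3 shares sum to the whole, so they are not independent of each other. As a test that does not depend on scaling, the ratio of *Junb* to *Jund* within a library was compared by an exact two-sided permutation test, with Benjamini-Hochberg adjustment over 24 ratio tests. It rose by 0.97 on the log2 scale in KO (6 of 6 replicates, permutation p = 0.00216, the smallest 6 against 6 can give, adjusted p = 0.026). The call was lost when replicate 1, 2, 3, 5 or 6 was left out. In WT the difference was 1.01 (higher in 3 of 3, exact p = 0.1, the smallest that 3 against 3 allow).

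**Figure D2:**
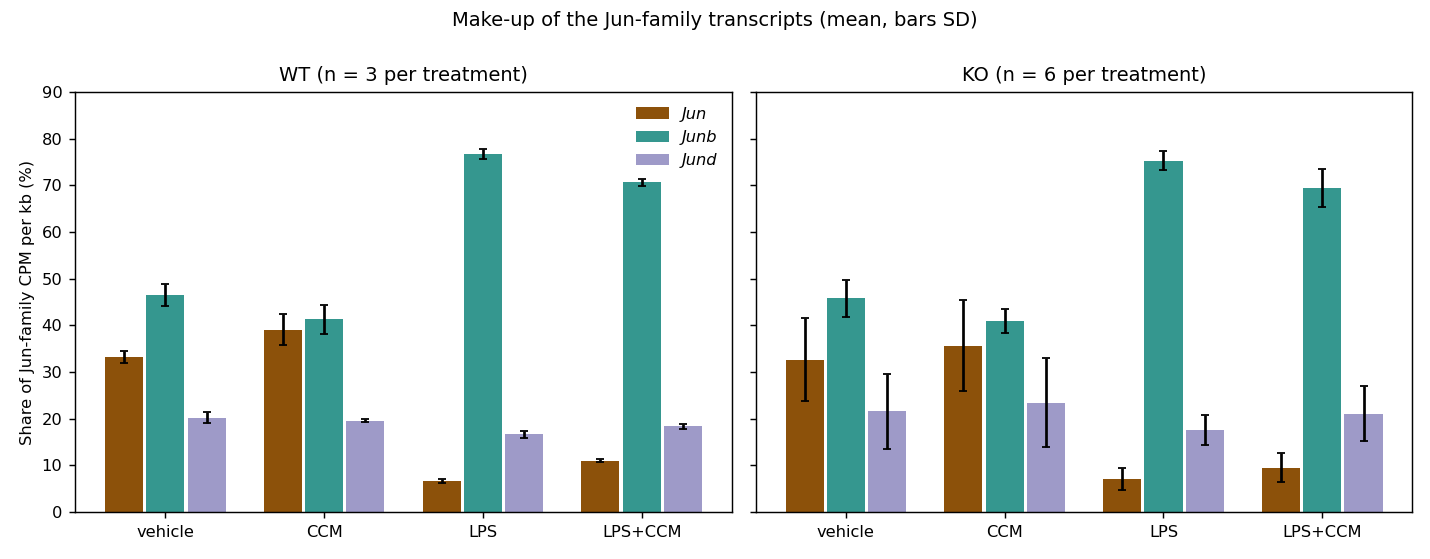
Share of *Jun*, *Junb* and *Jund* in the summed Jun-family level (CPM per kb, percent) by treatment, in WT on the left (n = 3) and KO on the right (n = 6). Columns are means and error bars SD. *Junb* takes 46.5% under vehicle in WT, 76.8% with LPS and 70.7% when CCM is added.

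The Fos-related genes were called higher and *Atf3* lower. *Fosl2*, which encodes FRA2, rose from 55.2, 65.6 and 72.0 CPM to 135, 132 and 114 CPM (log2 0.99, SE 0.11, adjusted p = 1.91e-05). *Fosl1*, which encodes FRA1, went from 4.45, 4.90 and 6.78 CPM to 9.63, 8.63 and 7.78 CPM (log2 0.68, SE 0.18, adjusted p = 0.00854), and it was not called with total counts (log2 0.27, adjusted p = 0.21) or in 1 fit of all 36 libraries (adjusted p = 0.135). Its overlap partner *Ccdc85b* went the other way, from 15.7 ± 0.487 to 5.59 ± 0.580 CPM. *Atf3*, a stress-induced factor that represses inflammatory genes, measured 420, 361 and 346 CPM under vehicle and 261, 245 and 229 CPM with LPS (log2 -0.61, SE 0.080, adjusted p = 8.26e-05). *Maff* rose from 7.53, 6.89 and 11.5 CPM to 40.4, 42.3 and 41.1 CPM (4.73-fold, log2 2.24, SE 0.16, adjusted p = 1.04e-06). The 3 *Maff* values with LPS lay within 2 CPM of each other, and those under vehicle were more spread.

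The order of the transcripts per kilobase was therefore different with LPS. *Junb* was highest (210 ± 30.8 CPM per kb), then *Atf3* (114 ± 7.57), *Batf* (48.9 ± 1.49) and *Jund* (45.2 ± 4.79). *Batf* and *Jund* overlapped, and each other neighboring pair was separated. *Batf2* (32.6 ± 0.400) stood above *Jun* (18.03 ± 1.06), *Maff* (15.9 ± 0.372), *Fosl2* (13.1 ± 1.22) and *Fosl1* (5.09 ± 0.540), and *Batf3* was lowest at 0.600 ± 0.237.

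In KO BMDMs the same comparison gave 8 of 10 genes called, 5 higher and 3 lower, against 47.1% of 13648 genes (22.4% higher and 24.7% lower). The 2 that were not called were *Jund* (log2 0.35, SE 0.34, adjusted p = 0.452) and *Fosl1* (log2 0.50, SE 0.28, adjusted p = 0.171), each higher in 6 of 6 replicates. Same-numbered KO libraries deviated together (correlations 0.245 to 0.762), but differently numbered ones also correlated (median 0.121), so pairing by number is not settled. With replicate number as a block edgeR called 10 of 10 genes (71.6% of all genes), *Jund* at log2 0.41 (adjusted p = 0.000156) and *Fosl1* at 0.56 (adjusted p = 0.00114). Without KO replicate 6, 9 of 10 were called (69.4% of all genes), *Fosl1* being the one not called (adjusted p = 0.116). With total counts *Jund* was at -0.01 and 7 were called against 55.2% of all genes, *Fosl2* no longer among them (adjusted p = 0.0525).

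*Batf2* in KO vehicle libraries ranged from 2.18 to 4.66 CPM (median 2.82) and in KO LPS libraries from 63.4 to 161 CPM (median 77.5), 30.5-fold (log2 4.93, SE 0.29, adjusted p = 1.53e-08). *Batf* ranged from 2.75 to 12.1 CPM (median 4.004) and from 64.7 to 167 CPM (median 71.9), with log2 4.04 (SE 0.41, adjusted p = 2.95e-06). The highest value of both genes in both groups was replicate 6, and without it the fold changes were 4.82 and 4.12 on the log2 scale. *Jun* went from a median of 177 CPM (131 to 225) to 65.0 CPM (45.6 to 75.2), with log2 -1.56 (SE 0.17, adjusted p = 4.22e-06; SE 0.13 without replicate 6). *Batf3* went from a median of 4.37 CPM (3.36 to 22.1) to 0.704 CPM (0.389 to 3.32), with log2 -2.75 (SE 0.64, adjusted p = 0.00307) and, without replicate 6, -2.69 (SE 0.23). The *Batf3* groups did not overlap, but the LPS value of replicate 6 (3.32 CPM) lay just below the lowest vehicle value.

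*Maff* rose from a median of 10.7 to 41.4 CPM (log2 1.95, SE 0.10), *Junb* from 182 to 479 CPM (log2 1.39, SE 0.16) and *Fosl2* from 64.5 to 130.2 CPM (log2 1.01, SE 0.19). *Atf3* fell from a median of 399 to 244 CPM (log2 -0.64, SE 0.17, adjusted p = 0.00681), with overlapping groups. The ratio of *Batf* to *Batf3* per kilobase, near equal under vehicle in KO (geometric mean 0.946), reached 105.9 with LPS, a log2 difference of 6.81 (6 of 6 replicates, exact permutation adjusted p = 0.026), and this call too was lost when replicate 1, 2, 3, 5 or 6 was left out. In WT it went from 0.886 to 83.3 (3 of 3, exact p = 0.1).

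**Figure D3:**
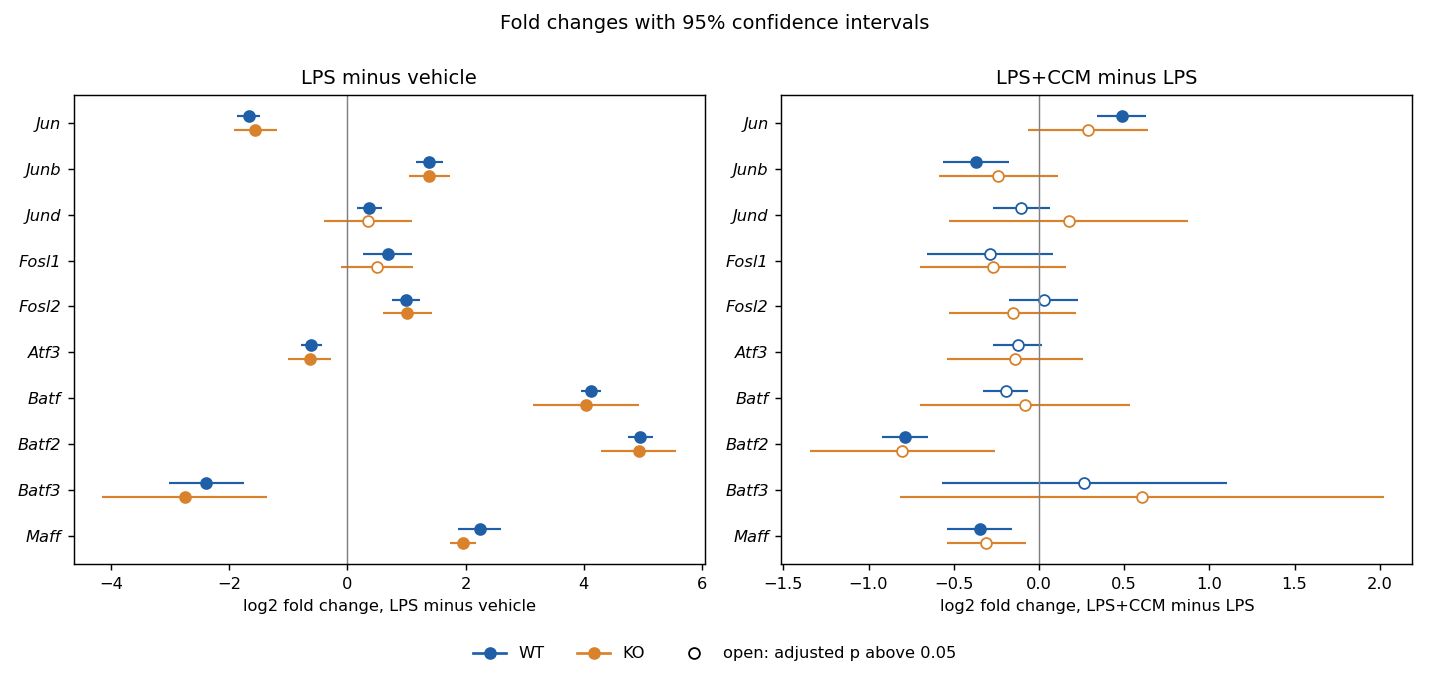
Log2 fold changes of the 10 genes with 95% confidence intervals from edgeR, for LPS against vehicle on the left and LPS+CCM against LPS on the right, in WT (blue) and KO (orange). Filled points have an adjusted p at or below 0.05. With LPS, 10 WT and 8 KO points are filled. For CCM under LPS, 4 WT points and no KO point are filled in these fits without a replicate block, and *Batf2* lies at -0.79 in WT and -0.80 in KO.

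The second comparison asked what CCM adds in LPS-stimulated WT BMDMs. By the edgeR test 4 of 10 genes differed between LPS+CCM and LPS, *Jun* higher and *Batf2*, *Junb* and *Maff* lower, against 11.9% of 13579 genes called (4.15% higher and 7.78% lower). With total counts the calls over all genes were 1539 higher and 733 lower. Groups did not overlap for 5 of 10 genes (30.5% of all genes). The 4 called genes each differed in the direction opposite to their LPS change; since both comparisons use the WT LPS libraries, their fold changes are not independent, and the LPS+CCM levels are therefore also given against vehicle.

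With LPS alone *Batf2* stood at 81.2, 83.2 and 82.1 CPM in WT, and with added CCM at 49.1, 49.8 and 44.0 CPM, with no overlap. CCM lowered it to 0.580 of the LPS level (log2 -0.79, SE 0.060, 95% confidence interval -0.92 to -0.65, adjusted p = 5.04e-05, lower in 3 of 3 replicates). Its overlap partner *Arl2* did not differ at the threshold (20.0 ± 0.926 and 19.6 ± 1.39 CPM, adjusted p = 0.859). *Junb* went from 412, 485 and 553 CPM to 366, 371 and 386 CPM (log2 -0.37, SE 0.087, adjusted p = 0.0208), and *Maff* from 40.4, 42.3 and 41.1 CPM to 34.4, 27.7 and 35.2 CPM (log2 -0.35, SE 0.086, adjusted p = 0.0259). Neither gene overlapped between groups. *Prdx2* beside *Junb* was at 188 ± 13.1 and 193 ± 7.21 CPM (adjusted p = 0.734). *Jun* rose from 53.8, 58.3 and 60.5 CPM to 79.5, 76.1 and 86.0 CPM (log2 0.49, SE 0.065, adjusted p = 0.000935), still below each vehicle library. The dendritic cell marker sum was also lower with CCM (4.72 to 5.22 against 2.56 to 3.12 CPM, without overlap), while the neutrophil (350.3 to 385 against 290 to 352) and macrophage sums (5340 to 5490 against 5479 to 5646) overlapped, and their part in these results was not tested.

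The calls of *Batf2* and *Jun* held when any 1 of the 6 libraries was left out. In 1 fit of all 36 libraries, which takes its spread from KO libraries as well, 17 of 15720 genes were called and none of these 4 (adjusted p = 0.488 for *Batf2* and 0.946 to 0.967 for the others by edgeR). *Junb* and *Maff* were lost without WT LPS replicate 2 (adjusted p = 0.0698 and 0.0967) and without WT LPS+CCM replicate 2 (0.0878 and 0.0549), and *Maff* also without WT LPS replicate 3 (0.0589) and with total counts (0.0554). Same-numbered libraries of this comparison deviated together (correlations 0.122 to 0.283). With replicate number as a block 6 of 10 genes were called (23.7% of all genes), adding *Atf3* (log2 -0.13, adjusted p = 0.0148) and *Batf* (log2 -0.19, adjusted p = 0.00795).

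The other 6 genes did not pass the threshold without the block. *Batf* measured 66.7, 68.5 and 70.9 CPM with LPS and 57.5, 64.2 and 58.3 CPM with LPS+CCM, without overlap (log2 -0.19, SE 0.060, adjusted p = 0.0616). *Atf3* was at 245 ± 16.3 and 224 ± 16.5 CPM (adjusted p = 0.267), *Fosl2* at 127 ± 11.8 and 129 ± 15.6 (adjusted p = 0.893) and *Jund* at 75.4 ± 7.99 and 70.3 ± 3.14 (adjusted p = 0.448). *Fosl1* was at 8.68 ± 0.922 and 7.08 ± 1.49 CPM (log2 -0.29, edgeR adjusted p = 0.324). Its overlap partner *Ccdc85b* was at 5.59 ± 0.580 and 7.00 ± 1.13 CPM (edgeR adjusted p = 0.262). The interval for *Fosl2* ran from -0.18 to 0.23 on the log2 scale. *Batf3* (0.958 ± 0.379 and 1.16 ± 0.387 CPM) had the widest interval, -0.57 to 1.10, and its change was not detectable at 11 to 32 read pairs per library.

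The amount of the LPS change present with CCM was taken per replicate number as the difference of LPS+CCM from vehicle in percent of the difference of LPS from vehicle, in CPM. The numbers did not meet the criterion for pairing (given below) for LPS in WT or for CCM under LPS in KO. The SDs of these percentages therefore rest on a matching of libraries that was not shown. For *Batf2* it was 56.6 ± 4.08% (n = 3) in WT and 57.9 ± 5.04% (n = 6) in KO. For *Junb* it was 65.5 ± 13.2% and 76.7 ± 9.93%, for *Maff* 73.5 ± 12.8% and 75.6 ± 9.83%, and for *Jun* 81.7 ± 2.81% and 87.4 ± 3.47%. *Batf2* thus had the lowest mean of the 8 genes plotted in both genotypes. *Batf* (86.6 ± 6.22% in WT), *Batf3* (94.3 ± 9.43%), *Fosl2* (102 ± 6.45%) and *Atf3* (116 ± 4.72%) lay nearer to or above the full change. For *Jund* and *Fosl1* the LPS change was too small for the percentage to be read.

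**Figure D4:**
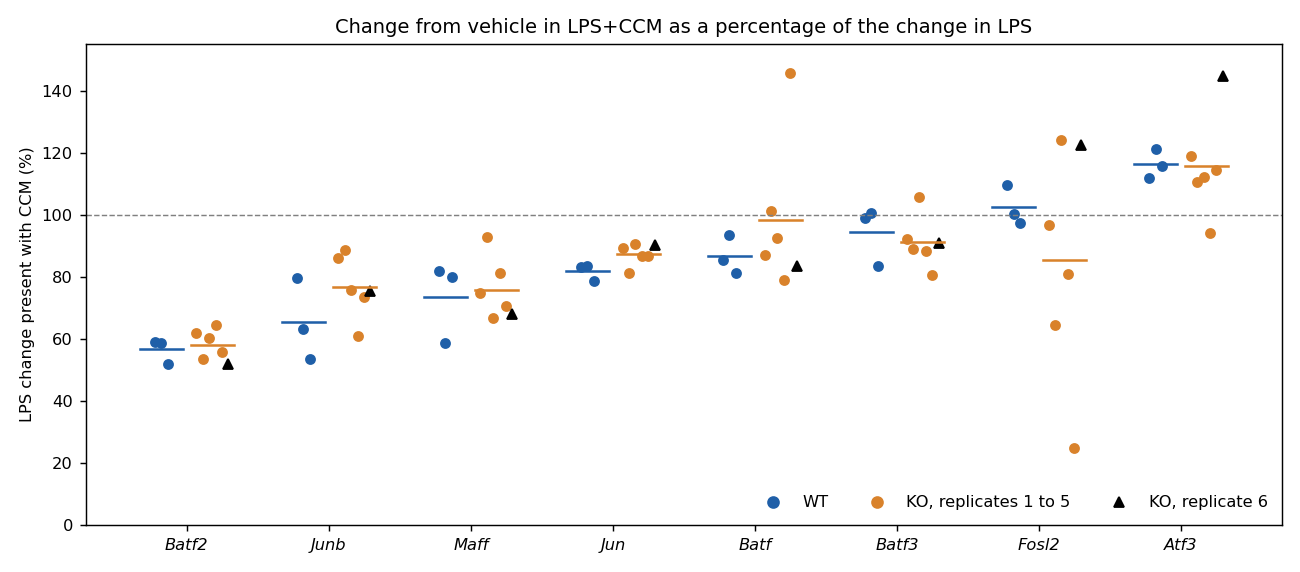
Change from vehicle in LPS+CCM as a percentage of the change in LPS, per replicate number, for 8 genes. Blue points are WT (n = 3), orange points KO replicates 1 to 5, black triangles KO replicate 6, bars are means, and the dashed line marks the full LPS change (100%). *Batf2* has means of 56.6% in WT and 57.9% in KO.

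Whether CCM acted differently with and without LPS was tested as an interaction in the 12 WT libraries. Without a replicate block *Batf2* was called, 1 of the 10 genes, at -0.74 (SE 0.14, 95% confidence interval -1.04 to -0.44, adjusted p = 0.0158), against 2.09% of 14747 genes. Without WT CCM replicate 3 the value was -0.71 and the adjusted p 0.0552, and in 1 fit of all 36 libraries the value was -0.75 and the call was lost. *Jun* (0.25, SE 0.13, adjusted p = 0.423), *Junb* (-0.20, SE 0.12, adjusted p = 0.501) and *Maff* (-0.32, SE 0.24, adjusted p = 0.624) did not pass, so that a difference of their CCM response between the 2 states was not shown. Nor did *Atf3* pass (-0.26, SE 0.12, edgeR adjusted p = 0.337), the only gene besides *Batf2* at an unadjusted p under 0.05. In the 24 KO libraries edgeR called 0 of 10 genes, with 0 at an unadjusted p under 0.05, against 0.00685% of all genes. DESeq2 gave an adjusted p for 9 and called 0, and over all genes it called 12 of 29535. *Batf2* there was at -0.52 (SE 0.34) and, without replicate 6, at -0.48 (SE 0.17, edgeR adjusted p = 0.287), again with 0 of 10 called.

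Without LPS, none of the 10 genes passed the threshold with CCM in either genotype when no replicate block was used. In WT 0 of 10 were called by edgeR and by DESeq2 (edgeR called 0.057% of 14024 genes, and DESeq2 247 of 25708). At an unadjusted p under 0.05 there were 3, *Jun* (184 ± 19.8 CPM under vehicle and 217 ± 25.5 with CCM, log2 0.22, adjusted p = 0.484), *Junb* (185 ± 9.34 and 165 ± 9.06, log2 -0.18, adjusted p = 0.397) and *Batf3* (5.14 ± 0.932 and 3.45 ± 0.231, log2 -0.58, adjusted p = 0.314). *Batf3* measured 6.10, 5.08 and 4.24 CPM under vehicle and 3.63, 3.19 and 3.54 CPM with CCM, and its groups were among 4 that did not overlap (16.4% of all genes). The dendritic cell marker sum did not overlap either (3.01 to 5.44 CPM under vehicle and 2.16 to 2.51 CPM with CCM), and its part in the *Batf3* values was not tested. *Batf2*, at 2.62 ± 0.361 and 2.57 ± 0.195 CPM, had a log2 difference of -0.05 with an interval of -0.51 to 0.40. In KO edgeR called 0 of 10 (0% of all genes). DESeq2 called 0 of the 9 to which it gave an adjusted p, and 24 of 27108 genes in all. Without replicate 6 edgeR again called 0 of 10 (1.01% of all genes). With replicate 6 included, edgeR gave 1 gene an unadjusted p under 0.05, *Maff* (log2 -0.36, adjusted p = 0.9999, lower in 6 of 6). Same-numbered libraries deviated together there too (correlations 0.259 to 0.795), but differently numbered ones also correlated (median 0.170), so pairing by number is not settled. With the block edgeR called 1 gene, *Fosl2* (log2 0.22, adjusted p = 0.0356, higher in 6 of 6), against 3.11% of all genes.

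In LPS-stimulated KO BMDMs, the comparison of LPS+CCM with LPS was first made without a replicate block. It called 0 of 10 genes by DESeq2 (180 of 26918 genes in all) and 0 of 10 by edgeR (0.112% of 13386 genes). At an unadjusted p under 0.05 there were 2, *Batf2* and *Maff*. *Batf2* ranged from 63.4 to 161 CPM (median 77.5) with LPS and from 41.5 to 85.8 CPM (median 47.5) with LPS+CCM, and the groups overlapped. The log2 fold change was -0.80 (SE 0.25, 95% confidence interval -1.34 to -0.26, adjusted p = 0.332), with a lower value in 6 of 6 same-numbered pairs. The replicate numbers did not meet the criterion for pairing in this comparison. In those pairs the log2 difference ran from -0.91 to -0.60. The overlap came from replicate 6, whose LPS+CCM value of 85.8 CPM was above the median of KO LPS. Without replicate 6 the value was -0.73 (SE 0.11) and *Batf2* was called (adjusted p = 0.0145), 1 of 10 genes against 1.27% of all genes. With replicate number as a block edgeR called *Batf2* (log2 -0.78, adjusted p = 0.000707), *Jun* (0.30, adjusted p = 0.0421) and *Maff* (-0.31, adjusted p = 0.0474), against 5.8% of all genes. That block is a hint only, since same-numbered libraries correlated from -0.06 to 0.72 here.

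*Maff* was lower in 6 of 6 pairs (median 41.4 CPM with LPS and 31.7 CPM with LPS+CCM, log2 -0.31, SE 0.11, adjusted p = 0.398). *Jun* was higher in 6 of 6 (median 65.0 and 81.2 CPM, log2 0.29, SE 0.16, adjusted p = 0.730) and *Junb* lower in 6 of 6 (median 479 and 412 CPM, log2 -0.24, SE 0.16, adjusted p = 0.799). The spread between KO libraries was larger than in WT, with a common biological coefficient of variation of 0.304 to 0.338 in fits of KO libraries and 0.078 to 0.114 in fits of WT libraries. The ratio of *Batf2* to *Batf* per kilobase, which does not depend on scaling, was lower with CCM in 6 of 6 KO replicates (geometric mean 0.590 with LPS and 0.362 with LPS+CCM, log2 difference -0.71, exact permutation p = 0.00433, adjusted p = 0.026). In WT it went from 0.667 to 0.442 (log2 -0.59, lower in 3 of 3, exact p = 0.1). LPS alone had moved it from 0.350 to 0.590 in KO (log2 0.75, exact permutation adjusted p = 0.026) and from 0.368 to 0.667 in WT (exact p = 0.1). These ratio calls were lost when replicate 1, 2, 3, 5 or 6 was left out of both groups, which raises the smallest p the test can reach. The *Fosl1* to *Fosl2* ratio passed in 0 of its 6 comparisons by the exact permutation test, with 0 unadjusted p under 0.05.

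The genotypes were then compared directly. KO and WT did not differ at the threshold for any of the 10 genes under vehicle (log2 fold changes -0.10 to 0.50) or LPS (-0.07 to 0.33), with 0 called by edgeR, 0 by DESeq2 (which gave an adjusted p for 9 of them under vehicle), 0 at an unadjusted p under 0.05 by edgeR, and 0% of all genes called by edgeR in both. Over all genes DESeq2 called 1 of 27030 under vehicle and 1 of 26318 under LPS. The widest interval under vehicle, for *Batf3*, ran from -0.89 to 1.88 (-0.65 to 0.14 without KO replicate 6), and the narrowest, for *Atf3*, from -0.30 to 0.33. The difference between genotypes in the CCM response under LPS was 0.00 for *Batf2* (SE 0.37, 95% confidence interval -0.78 to 0.78, adjusted p = 0.99997; 0.06 and -0.26 to 0.39 without KO replicate 6), -0.18 for *Jun* (SE 0.24), 0.15 for *Junb* (SE 0.25) and 0.05 for *Maff* (SE 0.16). None of the 10 genes was called in this test or in that of the LPS response by edgeR (0% of all genes) or DESeq2 (0 of all genes), and 0 had an unadjusted p under 0.05 by edgeR. Without KO replicate 6 these 4 comparisons of genotypes again called 0 of the 10 genes by edgeR. That 4 genes passed in WT and 0 in KO, in the fits without a block, is therefore not a shown difference between the genotypes.

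KO replicate 6 set the spread of several genes. *Jun* and *Fosl2* were below all other KO replicates in 4 of 4 treatments, at 0.520 to 0.732 and 0.399 to 0.666 of the median of the others. *Junb*, *Jund*, *Batf*, *Batf2* and *Batf3* were above all others in 4 of 4. *Batf3* was the farthest, at 4.54 to 7.98 times that median, *Jund* was at 2.32 to 2.98 times and *Batf* at 1.9997 to 3.78 times. *Maff* (0.794 to 1.07 times) lay within the others. The neutrophil and T-cell marker sums given above were also higher in this replicate, and their part in these values was not tested.

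Related genes were taken from 4 lists. Of 23 other bZIP genes, 12 were higher and 7 lower with LPS in WT (median log2 0.23, all genes -0.05), against 30.6% and 32.4% of all genes. *Cebpd* (log2 1.96), *Jdp2* (1.94), which encodes a repressor that pairs with JUN, and *Cebpb* (1.74) rose most. *Cebpa* (-2.91) and *Fos* (-1.87), the classical partner of JUN, were among those that fell. *Fos* measured 211 ± 12.6 CPM under vehicle, 57.2 ± 6.58 with LPS and 75.7 ± 7.31 with LPS+CCM. With CCM under LPS in WT, 22 of these genes were tested and 4 were called higher, among them *Fos* (log2 0.40, adjusted p = 0.0171), *Cebpa* (0.40, adjusted p = 0.00997) and *Atf5* (0.31, adjusted p = 0.0109), and 1 lower, *Mafk* (-0.21, adjusted p = 0.0352), another small MAF gene, against 4.15% and 7.78% of all genes. In KO, with replicate 6 included, 0 were called with CCM under LPS.

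Of 14 genes encoding MAP kinases and their activators, 8 were higher and 4 lower with LPS in WT, where 63% of all genes were called (30.6% higher and 32.4% lower). *Map2k1*, which encodes the ERK activator MEK1, went from 126 ± 3.86 to 430 ± 12.6 CPM, and *Map3k8*, the kinase that activates it after Toll-like receptor signals, rose from 17.9 ± 1.88 to 47.0 ± 1.10 CPM. *Mapk14*, which encodes p38-alpha, rose by 0.78, and *Map3k1* (-1.47), *Mapk3* (-0.71) and *Map2k3* (-0.17) were lower. With CCM under LPS in WT *Mapk14* was higher (log2 0.37, adjusted p = 0.000511) and *Map2k1* lower (-0.18, adjusted p = 0.0195), 2 of 13 tested, against 11.9% of all genes. The same comparison in KO, with replicate 6 included, called 0 of 13, against 0.112% of all genes. Transcript levels say nothing of kinase activity.

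Of 11 genes known as AP-1 targets, 7 were higher and 3 lower with LPS in WT, against the same 30.6% and 32.4% of all genes. *Mmp13*, a collagenase gene, went from 51.9 ± 4.82 to 2601 ± 180 CPM (log2 5.65), and *Mmp3*, near 0 under vehicle, to 6.63 ± 0.339 CPM. *Plaur*, the urokinase receptor gene, went from 147 ± 3.58 to 469 ± 27.4 CPM, while *Plau*, its ligand (log2 -2.65), *Ccnd1* (-2.25) and *Vim* (-0.43) fell. With CCM under LPS in WT 4 of 11 were called, all lower, against 7.78% of all genes. These were *Plau* (log2 -0.64, adjusted p = 0.00101), *Mmp13* (-0.56, adjusted p = 0.000887), *Plaur* (-0.41, adjusted p = 0.0011) and *Cd44* (-0.19, adjusted p = 0.0134). *Plau* moved further from its vehicle level with CCM, and *Mmp13* and *Plaur* moved back toward theirs. The same comparison in KO, with replicate 6 included, called 0 of 11, against 0.112% of all genes. The 2 IRF genes whose products bind beside BATF were *Irf8*, at 174 ± 10.2 CPM under WT vehicle and 156 ± 11.1 with LPS (adjusted p = 0.0808), and *Irf4*, at 2.28 ± 0.485 and 1.39 ± 0.218 CPM (log2 -0.70, adjusted p = 0.0399). With CCM under LPS in WT *Irf8* was at 135 ± 7.09 CPM (log2 -0.21, adjusted p = 0.0506).

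The genes whose levels followed each of the 10 most closely were found by Pearson's r of log2 CPM over the 36 libraries, among 15720 genes. The points share treatments and, within KO, replicate 6, so the values describe these libraries only. *Batf2* was closest to *Gch1* (r = 0.997), which encodes the first enzyme of tetrahydrobiopterin synthesis, and to *Tor3a* (0.997). *Batf* was closest to *Pirb* (0.994), an inhibitory receptor gene, and *Tap2* (0.994), a peptide transporter gene of antigen presentation. *Junb* was closest to *Plaur* (0.985) and *Dusp2* (0.984), a phosphatase gene that acts on MAP kinases, and *Maff* to *Usp18* (0.985) and *Marcksl1* (0.985). *Jun* was closest to *Tmem65* (0.983). *Batf3* followed *Cdca8* (0.966) and *Birc5* (0.965), both genes of dividing cells. *Jund* followed *Cdc34* (0.975), *Fosl2* followed *Fmnl2* (0.974) and *Filip1l* (0.971), and *Atf3* followed *Aldh2* (0.949) and *Mfsd12* (0.947). *Fosl1* had the loosest neighbors, *Bmp1* (0.867) and *Fscn1* (0.837).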

How the data were processed

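Poly(A) RNA of 36 BMDM libraries was sequenced as paired ends. Per the labels, the authors used fastp for trimming, HISAT2 2.0.5 for alignment (mm10) and featureCounts 1.5.0-p3 to count pairs over genes. The deposited values are raw counts per gene, with gene length and position. Every one of the 36 columns entered the analysis (0 unused). FPKM values were not used.

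For each comparison, only the groups concerned were fitted, over all genes, with edgeR 4.0.16 (R 4.3.3; filterByExpr, TMM, glmQLFit, glmQLFTest, two-sided, Benjamini-Hochberg, called at 0.05). Interactions were terms of 12, 18 or 24-library fits. Ratios of 2 genes used counts per kilobase with 0.5 added and exact permutation tests. Correlations used log2 CPM with a prior count of 2. Alternatives were DESeq2 1.42.0, RLE, upper-quartile and total-count scaling, no filter, replicate number as a block, all 36 libraries in 1 fit, voom with quality weights (limma 3.58.1) and leaving out each replicate. The code was tested on simulated counts.

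The 10 genes, the lists and the tests were chosen with earlier results of these data known. The rule for names took all 10 genes, up to 3 called genes per list and direction by size of change (average log2 CPM 1 or more), and the 2 most correlated genes. Some of the genes this rule names are not reported here. *Atf5*, *Cd44*, *Irf4* and the overlap partners were named after their values were seen. Replicate numbers are from the titles. The criterion for pairing was that every same-numbered pair of libraries correlated above 0.1 in its deviations from the group means. It was met for LPS in KO, CCM under LPS in WT and CCM alone in KO. For LPS in KO and CCM alone in KO differently numbered libraries correlated too, so pairing was not settled there. No main fit used the numbers as a block. The labels do not say that a number is 1 mouse. The p-values judge differences between groups against the spread between these libraries. Whether that spread is between animals or between cultures is not given in the labels. The paper's legend gives n = 3 for WT and n = 6 for KO, with female mice for all conditions. It does not state that 1 mouse supplied every treatment, and a spread between mice stays in the error of the fits without a block. Library totals ranged from 13469262 to 28288923, and the lowest chi-square per degree of freedom within a group was 4.08, so no library was counted as a copy of another.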

Additional observations from a re-analysis of the deposited data

Results flagged for a closer look

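In KO groups of 6, the highest or lowest library was tested by Dixon's criterion at the 95% level, which chance meets in about 1 of 20 groups. Of 40 groups (10 genes, 4 treatments) 15 met it, 14 of them by replicate 6, and groups of different genes in the same libraries are not independent. For *Jund* replicate 6 was the highest under vehicle (153 CPM), CCM (154 CPM) and LPS (161 CPM). For *Batf* it was highest under vehicle (12.1 CPM), CCM (15.2 CPM) and LPS (167 CPM), and for *Batf2* under vehicle (4.66 CPM), LPS (161 CPM) and LPS+CCM (85.8 CPM). *Batf3* was highest in replicate 6 in all 4 treatments, at 22.1 CPM under vehicle, 25.3 CPM with CCM, 3.32 CPM with LPS and 5.05 CPM with LPS+CCM. *Fosl2* was lowest there under vehicle (30.9 CPM). The remaining case was *Maff* in KO LPS+CCM, highest in replicate 2 (40.6 CPM).

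The response of *Batf2* to CCM differed between LPS-treated and unstimulated WT BMDMs by -0.74 on the log2 scale in edgeR's interaction test.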

How the results depend on the processing

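Of 1040 values recomputed for 70 gene results, 983 kept their direction and side of the threshold, 17 lost a call, 17 gained one and 23 changed sign, 1 of them of a called gene. In 1 fit of all 36 libraries, 0 members were called for CCM under LPS in WT (17 of 15720 genes in all), 1 in KO (285) and 0 for the interaction in WT (0 genes). With the replicate block, 3 were called for CCM under LPS in KO, *Jun*, *Batf2* and *Maff* (5.8% of all genes), with *Batf2* at -0.78 (adjusted p = 0.000707 by edgeR). There was 1 called for CCM alone in KO. For the interaction in WT 2 were called, *Batf2* and *Atf3* (-0.26, adjusted p = 0.0354 by edgeR), among 548 of 14747 genes. That block is a hint only where numbers do not pair, since same-numbered correlations ran from -0.06 to 0.72 for CCM under LPS in KO, 0.08 to 0.17 for LPS in WT and 0.07 to 0.38 for CCM alone in WT. For LPS in KO and CCM alone in KO pairing is not settled either, since differently numbered libraries correlated too (median 0.121 and 0.170). Voom with quality weights called 2 for CCM under LPS in KO (663 of 13386 genes). Leaving out 1 replicate gave 2 to 4 called members for CCM under LPS in WT (893 to 1352 genes in all), 0 to 1 in KO (0 to 170), 8 to 9 for LPS in KO (5429 to 9612) and 0 to 1 for the interaction in WT (149 to 295).

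The ratios *Junb* to *Jund*, *Batf2* to *Batf* and *Batf* to *Batf3* passed in 0 comparisons with sign flips within replicate numbers (replicate block), a test that with 6 or 3 pairs cannot pass after adjustment over 24 tests and so says nothing of these ratios, and in 0 to 2 when 1 replicate was left out, where fewer samples raise the smallest p that can be reached. With total counts *Jund* was at -0.037 (LPS in WT), -0.0077 (LPS in KO) and 0.040 (interaction in WT), and *Batf* at 0.066 in that interaction, where upper-quartile scaling gave 0.00026. With voom, *Jund* was at -0.15 for CCM under LPS in KO, and *Batf2* at 0.033 and *Maff* at 0.041 for CCM alone in WT. The cause was not tested. Leaving out 1 replicate turned the sign of uncalled values only. The ranges were -0.056 to 0.12 (*Fosl2*, CCM under LPS in WT), -0.19 to 0.012 (*Batf*, CCM under LPS in KO) and -0.44 to 0.0056 (*Batf3*, CCM alone in KO). For CCM alone in WT they were -0.10 to 0.027 (*Jund*), -0.32 to 0.12 (*Fosl1*), -0.16 to 0.015 (*Batf2*) and -0.21 to 0.23 (*Maff*), and for the interaction in WT -0.15 to 0.026 (*Jund*), -0.42 to 0.0082 (*Fosl1*) and -0.092 to 0.016 (*Batf*). Depth limits *Batf3*, with 4 to 87 read pairs per library under LPS+CCM in KO.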
